A study of Mus musculus with 12 samples.

Results

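The 9 genes described here encode surface receptors with which hematopoietic stem and progenitor cells find, enter and stay in the bone marrow: Cxcr4, Itga4, Itgb1, Itga6, Itgal, Selplg, Cd44, Esam and Robo4. They were chosen by name as receptors for homing, retention and adhesion, and all 9 were found among the 35999 genes of the deposited table. RNA was sequenced from LSK cells, the marrow fraction without lineage markers but with Sca-1 and KIT on its surface, where stem cells and multipotent progenitors are found, sorted from 6 WT mice and 6 Fancg KO mice, with 1 library per mouse. The KO mice are Fancg-/-, without a gene of the Fanconi anemia DNA repair pathway, and neither a Cre driver nor a treatment is named for these groups. The sources used here give neither strain, age nor sex of the mice.

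Stem cells are held in the marrow chiefly by the chemokine CXCL12, made by stromal cells, and its receptor CXCR4, and by integrins, which are pairs of an alpha and a beta chain. ITGA4 with ITGB1 forms VLA-4, which binds VCAM1 and fibronectin, ITGA6 with ITGB1 binds laminins, and ITGAL with ITGB2 forms LFA-1, which binds ICAM1 and ICAM2. Cells entering from the blood first roll on endothelial selectins through SELPLG (PSGL-1) and suitably glycosylated CD44, then stop by integrins and cross the endothelium toward CXCL12. ROBO4 and ESAM are shared by stem cells and endothelium and serve in adhesion and passage across it.

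Values are given as signal, the authors' estimate of reads for a gene after scaling of the library. About 1235110 to 2471413 reads stand behind a library, an approximate figure derived from the spacing of its lowest values. The gene Lars2 alone held 15.6 to 36.2% of the signal of a library, so fewer reads were left for the other genes. With limma on log2(signal + 1), 8887 genes whose signal averaged at least 10 were tested, and 8 of the 9 receptors passed this filter. Esam, with a mean signal of 4.23, did not, and was compared by an exact permutation test alone. Of all genes tested, 326 (3.67%) had an unadjusted limma p under 0.05, 176 of them (1.98%) higher and 150 (1.69%) lower in KO, and 0 had an adjusted p under 0.05 by the same tool. With each library rescaled to the same upper quartile, 142 were higher and 193 lower. The genotypes did not overlap for 8 genes (0.0900%), and for 0 of the 9 receptors. No receptor therefore passed the adjusted test, and the differences below are given with their unadjusted p and their intervals.

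Fancg, the targeted gene, had a signal of 4.76 to 24.1 in WT and of 4.46 to 14.5 in KO (exact permutation test, n = 6 per genotype, p = 0.636). It did not tell the labels apart in these libraries, and why was not tested, so WT and KO below are the labels of the libraries. WT replicate 3 and KO replicate 7 stood apart by a summed signal of 4 Y-linked genes of 26.6 and 49.7, against 189 to 435 in the other 10 libraries, and results that lose their call without both are also given without them. Among markers of the sorted cells, Kit had a signal of 283 to 435 and Ly6a, which encodes Sca-1, of 4.84 to 17.4 over the 12 libraries. Markers of T and NK cells summed to 2.52 to 9.47 with Ncr1 at 0. Summed markers of mature myeloid cells (71.1 to 142, Ly6g at 0), B cells (38.2 to 299) and stroma (75.1 to 128, Col3a1 at 0) were higher. The stromal sum was mostly Pdgfrb. Of the 9 mature myeloid markers 7 had a mean signal under 1, as had 4 of the 7 B cell markers. In each of these lists 2 genes passed the filter, so the sums rest on few genes. Whether such cells were present, and their part in the results, was not tested.

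Cxcr4 showed the clearest difference between the genotypes among the 9 receptors. GENCODE M21 on GRCm38, the source of all positions given here, places the gene at 128588199 to 128592293 of chromosome 1, minus strand (ENSMUSG00000045382.6). Its signal ran from 76.1 over a median of 107 to 125 in the WT libraries, and from 65.1 over a median of 74.0 to 86.3 in the KO libraries. All 6 KO libraries lay below the WT median, 5 of 6 WT libraries lay above the highest KO library, and the remaining one was WT replicate 3. The mean was 105 ± 18.9 (SD, n = 6) in WT and 74.7 ± 7.98 (SD, n = 6) in KO. The log2 fold change was -0.47 (standard error 0.15, 95% confidence interval -0.78 to -0.16), a KO level of 0.72 times the WT level with an interval from 0.58 to 0.90. Its unadjusted limma p was 0.0059, rank 25 of the 8887 genes tested, and its adjusted p was 0.9996, while the exact permutation test of the 6 against 6 libraries gave p = 0.0065.

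Cxcr4 rested on about 42.3 to 139 reads per library. Since bulk RNA was measured, fewer cells of a type and less RNA per cell cannot be told apart, here and for the other receptors. Without WT replicate 3 and KO replicate 7, the WT libraries lay between 94.4 and 125 and the KO libraries between 65.1 and 86.3. The groups did not overlap, which was fixed in advance, since WT replicate 3 was the only WT library not above the highest KO library. The exact permutation p given below follows from the same omission. Of all genes tested, 49 (0.551%) did not overlap in those 10 libraries. The log2 fold change was then -0.53 (exact permutation test, n = 5 per genotype, p = 0.0079, the smallest that 5 against 5 libraries allow). When each of the 12 libraries was omitted in turn, the log2 fold change of Cxcr4 lay between -0.56 and -0.42, with an unadjusted limma p of at most 0.017.

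**Figure D1:**
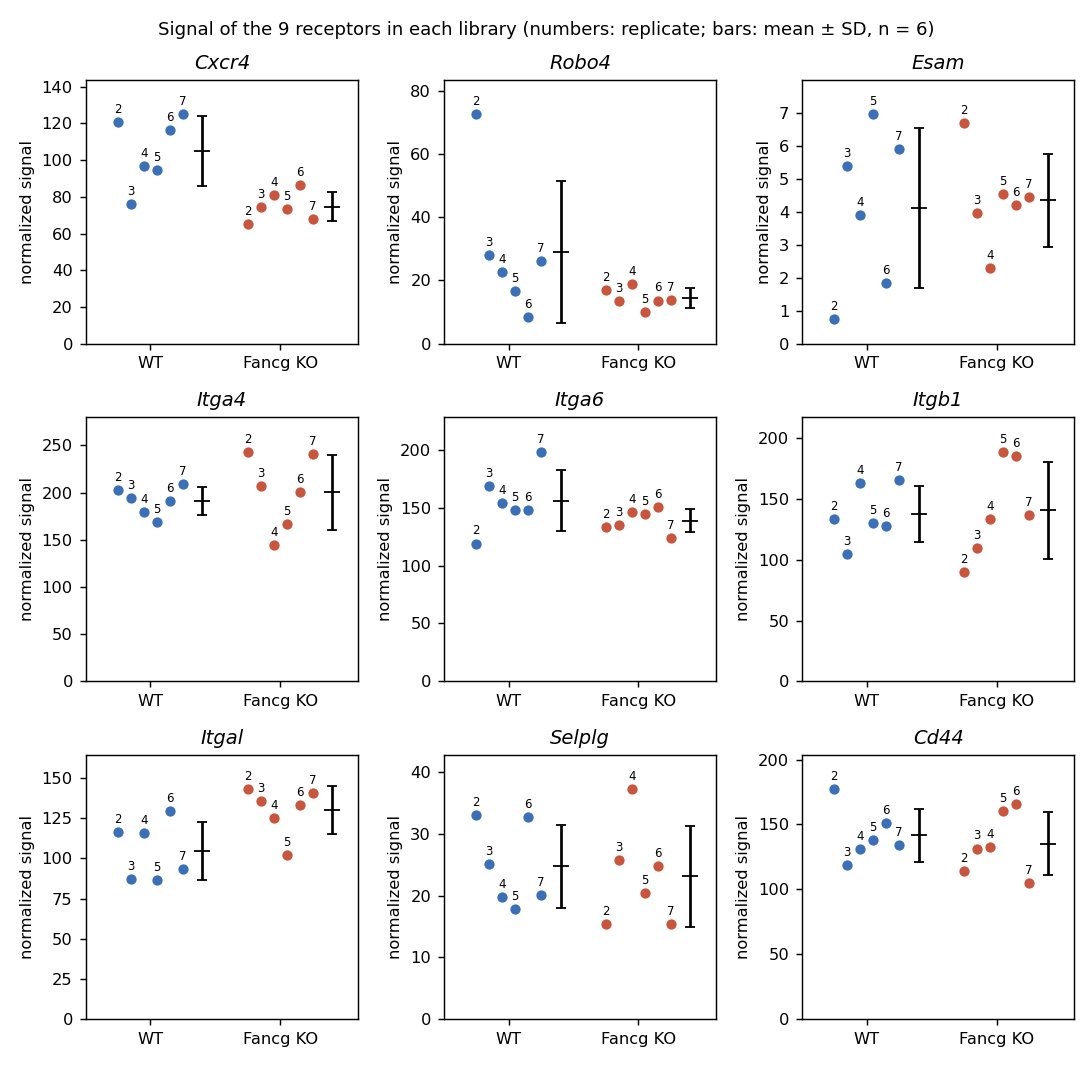
Normalized signal of the 9 receptors (vertical axes, each from 0) in the 6 WT and 6 Fancg KO libraries, with points numbered by replicate and bars for mean ± SD. Cxcr4 lies between 76.1 and 125 in WT and between 65.1 and 86.3 in KO, Itgal leans the other way, and Robo4 has 1 WT library at 72.5.

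Itgal, the alpha chain of LFA-1, stood second among the receptors by unadjusted p, in the opposite direction. It lies on chromosome 7 from 127296260 to 127335138 on the plus strand (ENSMUSG00000030830.18). Its signal ran from 86.4 over a median of 105 to 129 in WT and from 102 over a median of 135 to 143 in KO. In KO, 4 libraries lay above the highest WT library, and 3 WT libraries lay below the lowest KO library. The means were 105 ± 18.2 (SD, n = 6) and 130 ± 14.97 (SD, n = 6). The log2 fold change was 0.32 (standard error 0.14, 95% confidence interval 0.013 to 0.63), with an unadjusted limma p of 0.042, an adjusted p of 0.9996 and an exact permutation p of 0.039. This call was weak. When each of the 12 libraries was omitted in turn, the unadjusted limma p ran from 0.019 to 0.0997, and it stayed under 0.05 only without WT replicate 2, WT replicate 4, WT replicate 6 or KO replicate 5. Without WT replicate 3 and KO replicate 7 the log2 fold change was 0.24 (exact permutation test, n = 5 per genotype, p = 0.127).

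Itgb2, the beta chain that pairs with ITGAL, was not among the 9 receptors but belonged to the list of other integrin subunits. Its signal was 19.7 ± 5.10 (SD, n = 6) in WT and 29.5 ± 8.86 (SD, n = 6) in KO, a log2 fold change of 0.55 (unadjusted limma p = 0.027, adjusted p = 0.9996, exact permutation p = 0.026). Both chains of LFA-1 thus had the higher mean in KO. KO replicate 7 held the highest Itgb2 signal, 45.5, and WT replicate 3 the lowest, 12.8. Without both, the log2 fold change of Itgb2 was 0.31 and its unadjusted limma p was 0.157. The ratio of Itgal to Itgb2 was 5.58 ± 1.42 (SD, n = 6) in WT and 4.72 ± 1.47 (SD, n = 6) in KO, a difference smaller than its spread.

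Since Cxcr4 was lower and Itgal higher, the ratio of Cxcr4 to Itgal within a library, which no scale factor enters, separated the genotypes. It lay between 0.836 and 1.34 in WT (median 0.970) and between 0.455 and 0.716 in KO (median 0.598). Of the 28 ratios between the 8 receptors tested, this was the only one without overlap. Among all pairs of the 8796 genes above 0 in every library, 0.149% of ratios did not overlap. The pair was singled out after its values were seen, so no test was made of it.

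**Figure D2:**
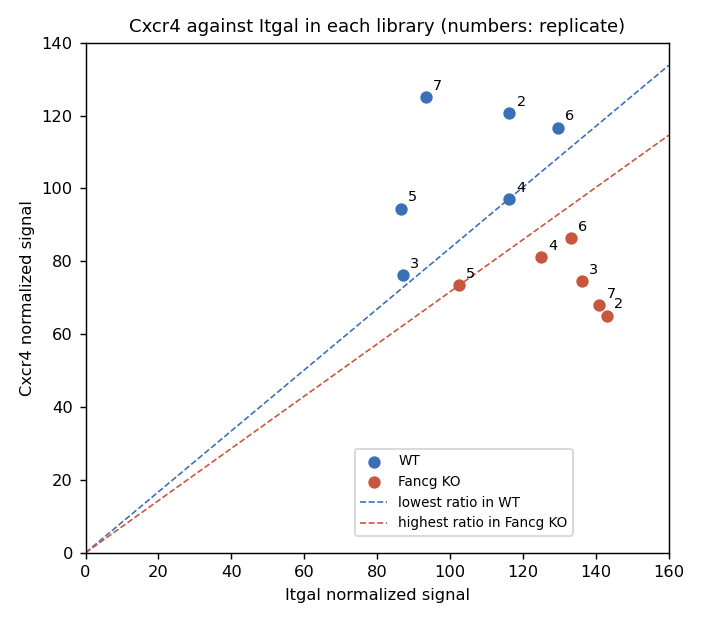
Normalized signal of Cxcr4 (vertical) against Itgal (horizontal) in the 12 libraries, numbered by replicate, with dashed lines for the lowest Cxcr4 to Itgal ratio in WT (0.836) and the highest in KO (0.716). All 6 KO libraries lie below the KO line or on it and all 6 WT libraries lie on or above the WT line.

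The chains of the beta-1 integrins differed little in mean. Itga4 lies on chromosome 2 from 79255426 to 79333123 on the plus strand. It had a signal of 169 to 209 in WT (median 193) and of 144.5 to 243 in KO (median 204). The KO libraries lay on both sides of the WT range, 2 below and 2 above it, with a coefficient of variation of 19.7% against 7.83% in WT. Its log2 fold change was 0.05 (95% confidence interval -0.26 to 0.36, unadjusted limma p = 0.743, exact permutation p = 0.712), so a KO level below 0.84 or above 1.28 times that of WT lies outside the interval. Exons of Cerkl on the other strand overlap those of Itga4. Cerkl had a signal of 2.18 to 82.8, with its highest value in KO replicate 4, where Itga4 had its lowest, and how the reads were divided between these genes was not tested.

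Itgb1, the beta chain shared by VLA-4 and the laminin receptor, lies on chromosome 8 from 128685654 to 128733200. Its signal was 105 to 165 in WT (median 132) and 89.6 to 189 in KO (median 135). The KO libraries again enclosed the WT range, with 1 library below it and 2 above. KO exceeded WT by 0.0023 on the log2 scale (95% confidence interval -0.40 to 0.40, unadjusted limma p = 0.990, exact permutation p = 0.981). Its spread within genotypes was larger than that of 60.2% of the 1812 genes of similar mean signal (0.5 to 2 times its own).

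Itga6, the laminin receptor chain that marks stem cells among other cells, lies on chromosome 2 from 71745616 to 71858416. Its signal ran from 119 over a median of 151 to 198 in WT and from 124 over a median of 140 to 151 in KO. All 6 KO libraries lay below the WT median, yet every one of them lay inside the WT range. Its log2 fold change was -0.15 (95% confidence interval -0.44 to 0.13, unadjusted limma p = 0.270, exact permutation p = 0.182). Without WT replicate 2, the lowest WT library, it was -0.23, with an unadjusted limma p of 0.103 and an exact permutation p of 0.011. Without WT replicate 7, the highest, it was -0.08, and without WT replicate 3 and KO replicate 7 it was -0.09 (exact permutation p = 0.508). Itga6 had the smallest spread relative to its level of the 8 receptors tested, below that of all but 10.4% of the 1713 genes of similar signal.

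The partner ratios varied between mice more than between genotypes. The ratio of Itga4 to Itgb1 was 1.43 ± 0.263 (SD, n = 6) in WT, from 1.103 to 1.86, and 1.57 ± 0.693 (SD, n = 6) in KO, from 0.882 to 2.72. That of Itga6 to Itgb1 was 1.16 ± 0.254 (SD, n = 6) in WT and 1.05 ± 0.278 (SD, n = 6) in KO. Both ratios overlapped between the genotypes over most of their ranges.

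Of the receptors for the first, rolling step, neither differed beyond its spread. Selplg, the main selectin ligand of blood cells, lies on chromosome 5 from 113818536 to 113832644. It had a low signal of 17.8 to 33.0 in WT (median 22.6) and of 15.4 to 37.3 in KO (median 22.6), from 9.60 to 47.7 reads per library. Its log2 fold change was -0.12 (95% confidence interval -0.63 to 0.40, unadjusted limma p = 0.632, exact permutation p = 0.617). A KO level from 0.64 to 1.32 times that of WT lies within this interval.

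Cd44, a receptor for hyaluronan and, when glycosylated, for selectins, lies on chromosome 2 from 102811141 to 102901665. Its signal was 119 to 177 in WT (median 136) and 105 to 166 in KO (median 132). Its log2 fold change was -0.08 (95% confidence interval -0.39 to 0.24, unadjusted limma p = 0.610, exact permutation p = 0.574). GENCODE lists 8 protein-coding transcripts of Cd44, and since the table holds 1 value per gene, its splice forms were not measured.

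Robo4, a receptor of the roundabout family found on stem cells and endothelium, had the largest fold change of the receptors and also the largest spread. It lies on chromosome 9 from 37401897 to 37415115. Its signal ran from 8.56 over a median of 24.3 to 72.5 in WT and from 10.05 over a median of 13.7 to 18.7 in KO. All 6 KO libraries lay below the WT median and 4 WT libraries lay above the highest KO library, while WT replicate 6 was the lowest of all 12. The mean was 29.1 ± 22.4 (SD, n = 6) in WT and 14.5 ± 3.01 (SD, n = 6) in KO, and the log2 fold change was -0.70 (95% confidence interval -1.48 to 0.07). The unadjusted limma p was 0.073, the exact permutation p 0.110 and the adjusted p 0.9996. WT replicate 2, at 72.5, carried much of this difference. Without it the log2 fold change was -0.39 (exact permutation p = 0.214), and without WT replicate 6 it was -0.98 (unadjusted limma p = 0.0073). These values correspond to 6.82 to 60.2 reads per library.

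Since endothelium also makes Robo4, Esam and Itga6, its markers were read beside them. Of the 12 endothelial markers listed, Cldn5 was at 0 in every library, Cdh5 was at 0 to 1.04, Kdr at 0 to 5.04 and Plvap at 0 to 7.56. Without Pecam1 the list summed to 132 to 205 in WT and 122 to 333 in KO, and WT replicate 2, highest in Robo4, had a sum of 181. That library also held the highest signal among the 12 libraries of Egfl7 (57.8) and Emcn (35.02), and of Flt3 (646) and Hlf (136) of the progenitor and stem-cell lists. Slamf1 of the stem-cell list went the other way in it, with 7.53 below its WT median of 11.6. So did other endothelial markers, of which Tek and Vwf also belong to the stem-cell list. Tek (10.4) was the lowest of the 12 libraries, Kdr was at 0, and Vwf (21.3) and Tie1 (54.2) lay below their WT medians of 26.6 and 55.4. Plvap (2.41) lay above its WT median of 1.89. Pecam1 itself had a signal of 17812 to 76164, far above every other gene of the endothelial list, and was left out of the sum after this was seen. Whether these reads all come from Pecam1 transcripts was not tested. The part of endothelial RNA in the Robo4 values was not tested beyond these measurements.

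Esam, an adhesion molecule of endothelial junctions and of stem cells, lies on chromosome 9 from 37528078 to 37538319. It was barely detected, with a signal of 0.753 to 6.95 in WT (median 4.65) and of 2.28 to 6.69 in KO (median 4.31), or 0.626 to 10.3 reads per library. All values but the single lowest, that of WT replicate 2, stood for more than 1 read. On the log2 scale KO was higher by 0.20 (exact permutation test, n = 6 per genotype, p = 0.639), and a difference was not detectable at this depth.

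**Figure D3:**
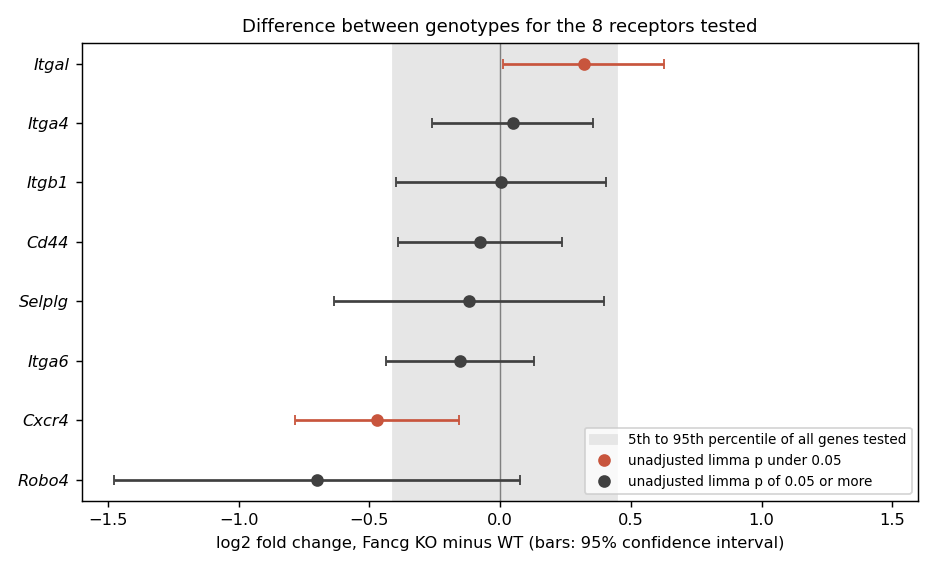
Log2 fold change of KO against WT (horizontal) for the 8 receptors tested, with bars for the 95% confidence interval of limma and a grey band from the 5th to the 95th percentile of all genes tested. The interval of Cxcr4 runs from -0.78 to -0.16 and that of Itgal from 0.013 to 0.63, and the other 6 intervals include 0.

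In all, 2 of the 8 receptors tested had an unadjusted limma p under 0.05, 1 lower and 1 higher in KO, against 3.67% of all genes. As the receptors were chosen with earlier results of these data known, this count is no test of an excess among them. The receptors did not lean one way as a group. Of the 8, 5 had a negative and 3 a positive log2 fold change, with a median of -0.10 beside 0.0031 for all genes tested. Without WT replicate 3 and KO replicate 7, Cxcr4 alone remained under 0.05.

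The makeup of the LSK fraction was read from genes of stem cells and of progenitors. Flt3, which marks multipotent progenitors with lymphoid potential, had a signal of 489 ± 95.5 (SD, n = 6) in WT and of 358 ± 127 (SD, n = 6) in KO (log2 fold change -0.51, unadjusted limma p = 0.042, exact permutation p = 0.063). Its unadjusted limma p stayed under 0.05 in 4 of the 12 fits with a library omitted, the log2 fold change was -0.32 without KO replicate 6 and -0.47 without WT replicate 3 and KO replicate 7, and neither was under 0.05. With all libraries it was the only 1 of the 8 multipotent-progenitor genes tested under 0.05. Of these 8, 4 were higher and 4 lower in KO, with log2 fold changes from -0.94 to 0.36. Of the stem-cell-enriched genes, 7 were tested and 0 had an unadjusted limma p under 0.05. On the log2 scale 3 were higher and 4 lower in KO, from -0.42 to 0.69, with Hlf at -0.19 and Mecom at -0.15. The summed signal of the multipotent-progenitor list was 1708 to 2856 in WT and 1486 to 2681 in KO, and that of the stem-cell-enriched list 239 to 451 and 211 to 536. The part of such differences in the values of Cxcr4 was not tested.

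Levels of the receptors were compared per kilobase of the longest coding transcript in GENCODE. In WT, Cxcr4 stood highest with 58.2 ± 10.5 per kb (SD, n = 6), followed by Itga6 (36.2 ± 6.10) and Itgb1 (36.0 ± 6.03), the latter pair being indistinguishable. Cd44 (25.2 ± 3.62), Itgal (20.1 ± 3.48) and Itga4 (19.6 ± 1.53) formed a middle group, of which Itgal and Itga4 did not differ beyond their spread. Selplg (13.4 ± 3.63), Robo4 (5.87 ± 4.53) and Esam (2.21 ± 1.3002) stood lowest. Cxcr4 was above Itga6 in 12 of 12 libraries, Itgb1 above Cd44 in 12 of 12 and Selplg above Robo4 in 12 of 12, although the WT ranges of all 8 neighbouring pairs overlapped.

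In KO, Cxcr4 was still highest at 41.4 ± 4.42 per kb, nearer to Itgb1 at 36.9 ± 10.5 than in WT, and Itgal at 24.9 ± 2.87 stood level with Cd44 at 24.0 ± 4.33. Divided by the full exonic length in place of the longest coding transcript, Cxcr4 stayed highest and Esam lowest, while Itga6 moved from the second to the fourth place in WT. VLA-4's alpha chain, which had the highest signal of the 9 receptors per gene, thus ranked sixth of the 9 by length.

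**Figure D4:**
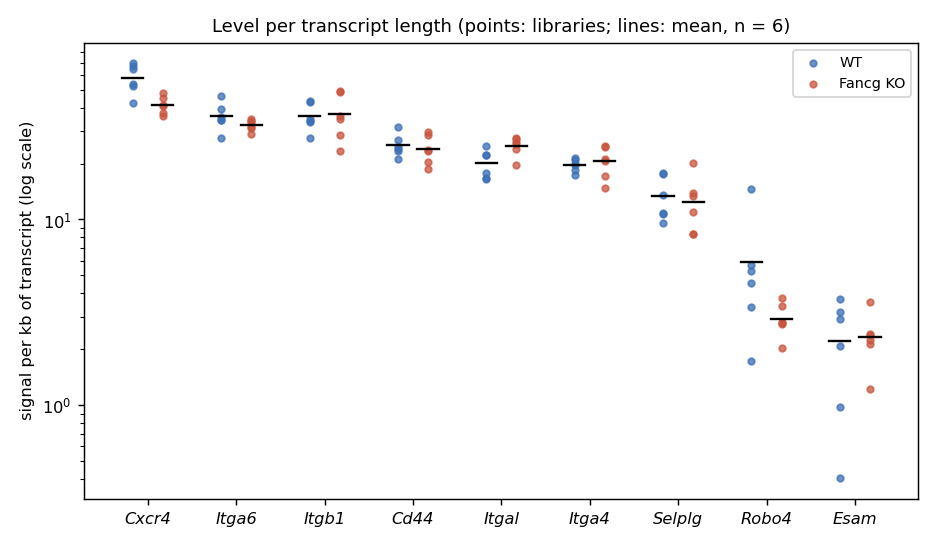
Signal per kilobase of the longest coding transcript (vertical, log scale) for the 9 receptors in the 6 WT and 6 KO libraries, with lines for the means. Cxcr4 stands highest in both genotypes, with a WT mean of 58.2 and a KO mean of 41.4, and Robo4 and Esam stand lowest.

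Other genes of adhesion and homing were taken from 8 lists. Of 180 genes in the table, 103 were tested and 5 (4.85%) had an unadjusted limma p under 0.05, 4 higher and 1 lower in KO, close to the 3.67% of all genes. The 4 include St3gal3, which passed the filter only through its KO libraries. Their median log2 fold change was 0.0048. No gene of these lists had an adjusted p under 0.05.

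Among the other integrin subunits, 7 of 22 were tested and 2 had an unadjusted p under 0.05, Itgb2 and Itga2b. Of the 7, 4 were higher and 3 lower in KO. Of the subunits below the filter, Itgb5 had means of 6.23 in WT and 2.33 in KO, and Itga7 of 7.46 and 10.8. Both were picked after values were seen and are given as a description. Itga2b, the alpha chain of the platelet fibrinogen receptor and a marker of megakaryocyte-biased progenitors, had a signal of 11.8 to 19.2 in WT and of 19.2 to 45.4 in KO. Its log2 fold change was 0.72 (unadjusted limma p = 0.0060, adjusted p = 0.9996, exact permutation p = 0.0043). Only WT replicate 3 reached the level of the lowest KO library, and without KO replicate 7, at 45.4, the log2 fold change was 0.55. The other 5 megakaryocyte markers listed were sparse, with a sum of 0.846 to 39.9 in WT and of 3.14 to 42.9 in KO, again highest in KO replicate 7. Itga5 (35.5 and 34.1), the fibronectin receptor chain, and Itgam (25.1 and 26.2) had similar means in WT and KO.

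Of 23 tested genes that activate integrins or link them to actin, Sharpin and Rhoh had an unadjusted p under 0.05. Sharpin, an inhibitor of integrin activation, had a log2 fold change of 0.51 (unadjusted limma p = 0.037, exact permutation p = 0.026). Rhoh, a small GTPase of blood cells without GTP hydrolysis, had one of -0.61 (unadjusted limma p = 0.036, exact permutation p = 0.074). Both exceeded 0.05 without WT replicate 3 and KO replicate 7, with limma p of 0.097 and 0.106. Fermt3 (kindlin-3), which integrins of blood cells need for activation, had a signal of 230 ± 23.5 (SD, n = 6) in WT and of 285 ± 61.1 (SD, n = 6) in KO (unadjusted limma p = 0.073, exact permutation p = 0.061). Cd47 and Cdc42, the genes of this list with the highest signal, had log2 fold changes of 0.0012 and -0.10.

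Of 16 tested genes of CXCR4 signalling, 0 had an unadjusted limma p under 0.05, and their median log2 fold change was -0.06. Rgs18 and Rgs1, regulators of G protein signalling and the most abundant of the list, had log2 fold changes of -0.17 and 0.22. Rgs1 spread widely (329 ± 273 in WT and 280 ± 181 in KO, SD, n = 6). Its mean signal was thus lower in KO, against the sign of its log2 fold change. The kinases Grk2, Grk3 and Grk6, which act on activated receptors, lay between -0.08 and 0.12. Of 13 tested chemokine and other retention receptors, 0 passed either. The sphingosine-1-phosphate receptor S1pr1, which draws cells toward the blood, was at -0.08, and Cd164 and P2ry14 were at -0.17 and 0.21.

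For the selectin ligands, 13 genes of their synthesis were tested and 1, the sialyltransferase St3gal3, was under 0.05. Its mean signal was 8.55 in WT, below the filter, and 18.7 in KO, so it was tested only through the KO libraries and its difference is given as a description. The log2 fold change was 0.88, and 0.68 and no longer under 0.05 without WT replicate 3 and KO replicate 7. Fut7 and Gcnt1, the fucosyltransferase and branching enzyme that make PSGL-1 bind selectins, were at 0.16 and -0.32 (unadjusted limma p = 0.661 and 0.113, exact permutation p = 0.708 and 0.104). C1galt1 and Galnt1, enzymes of the first steps of O-glycan synthesis with the highest signal of this list, were at -0.09 and -0.10. Of the 8 tested partners of CD44, 0 had an unadjusted limma p under 0.05, and the membrane linkers Ezr, Rdx and Msn lay between -0.09 and 0.13, with the RNA-binding protein gene Khdrbs1 at 0.04. Among 20 tested adhesion molecules of other kinds, 0 passed, with Cd34 at -0.12.

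Most niche ligands listed had a low signal in the sorted cells. Of 19 listed, 6 had a mean signal under 1, 3 passed the filter and 0 of these 3 had an unadjusted limma p under 0.05. Cxcl12 was above 0 in 2 of the 12 libraries, both WT, and reached 1.19 at most, while Madcam1 and Slit3 were at 0 in all. Angpt1, a ligand of the TEK receptor made by stem cells themselves, was an exception at 442 ± 81.6 (SD, n = 6) in WT and 446 ± 53.1 (SD, n = 6) in KO, and Hgf had means of 57.8 and 60.7.

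**Figure D5:**
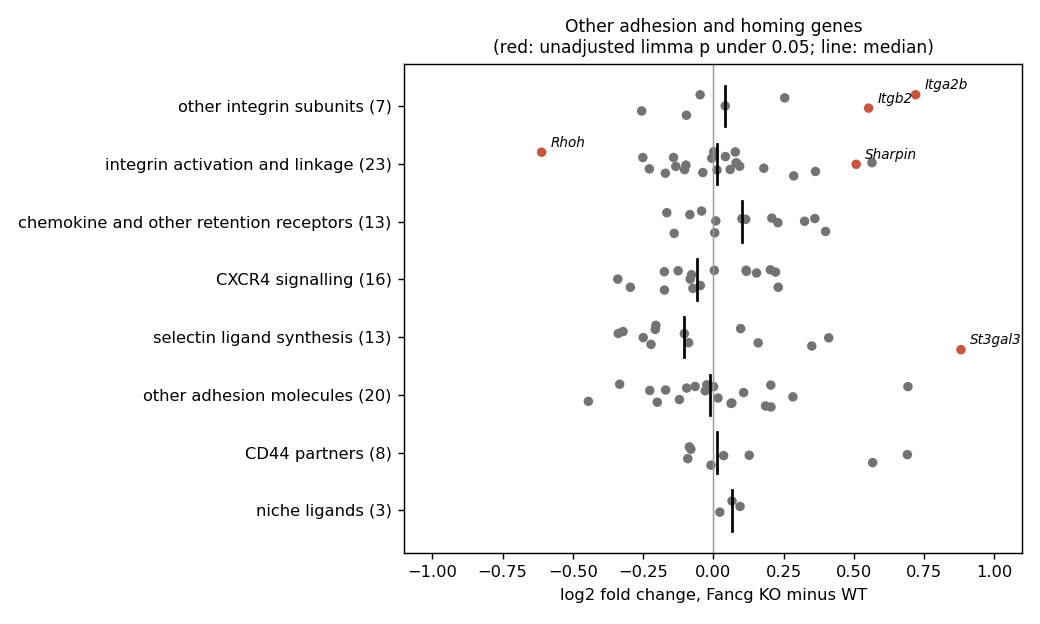
Log2 fold change of KO against WT (horizontal) for the tested genes of 8 lists of adhesion and homing genes (rows, with the number tested), with the median of each list as a line and genes under an unadjusted limma p of 0.05 in red. The 5 red genes are Itga2b, Itgb2, Sharpin, Rhoh and St3gal3, and the medians lie between -0.10 and 0.10.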

How the data were processed

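Bulk RNA-seq of sorted LSK cells from 12 mice was analysed. The authors deposited a normalized signal for each gene. Its values behave like reads estimated per gene and then scaled library by library. Kallisto is named in the submitters' processing notes, and the mouse genome build and annotation are not given in the sources used here. Every column matched a library title, and groups came from the genotype labels.

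Values were used as deposited. Genes averaging a signal of 10 or more were tested on log2(signal + 1), a scale that understates changes of low genes, with limma 3.58.1 in R 4.3.3 (genotype only, variance trend on, two-sided tests, p adjusted by Benjamini-Hochberg over all genes tested). Single genes were also compared by two-sided exact permutation tests over the 924 divisions of the 12 libraries. Tests were tried on simulated data. No count model was fitted, because the values did not come back as whole reads.

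The receptors and lists were chosen with earlier results of these data known. Named were all receptors and, from each list, genes with an unadjusted p under 0.05 and the 2 with the highest signal. Other genes named for their role (Fermt3, Grk2, Grk3, Grk6, S1pr1, Fut7, Gcnt1, Ezr, Msn), the Cxcr4 to Itgal ratio, Cerkl, Itgb5 and Itga7 were chosen after values were seen. Alternatives were other pseudocounts (0.5 and 5), filters and scalings, limma without trend, the replicate number as a block, and libraries left out.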

Additional observations from a re-analysis of the deposited data

Results flagged for a closer look

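For the 9 receptors and the 7 other genes with an unadjusted p under 0.05, each genotype was searched by Dixon's rule for a library standing away from the remaining 5. This made 32 groups, of which 3 held such a library, where chance alone gives about 1 in 20, or 1.6.

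WT replicate 2 stood apart in Robo4 with a signal of 72.5, while the remaining WT libraries lay between 8.56 and 28.0. KO replicate 7 stood apart in Itga2b with 45.4, the remaining KO libraries lying between 19.2 and 24.0, and it also had the highest signal of Vwf (177), Tek (58.1), Slamf1 (34.8) and Itgb2 (45.5). Other stem-cell and endothelial genes did not peak in it. Hlf (74.8) and Tie1 (53.1) lay below their KO medians of 74.9 and 63.9, and Egfl7 (30.0) and Emcn (12.5) a little above theirs of 29.2 and 11.3. This library also had the fewest reads, about 1235110. WT replicate 7 was low in Sharpin with 11.4, and the remaining WT libraries lay between 19.1 and 23.5.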

How the results depend on the processing

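The log2 fold change of Cxcr4 kept its direction and an unadjusted limma p under 0.05 in all 10 alternatives (-0.53 to -0.45) and in all 12 fits without 1 library. Itgal kept its direction in all of them, but its p exceeded 0.05 in 4 of the 10, which left Cxcr4 alone, a count of 1 receptor, with quantile normalization, with upper quartile rescaling, with limma without trend, and without both WT replicate 3 and KO replicate 7. Leaving out 1 library gave 1 to 3 receptors. For the 8 other lists the count was 1 above a mean signal of 50, again 1 without both of those libraries (main count 5), and 1 to 8 leaving out 1 library, the lowest without KO replicate 7 and the highest without KO replicate 3. Over all genes the count was 836 of 21536 tested without a filter and 91 of 3119 above a mean signal of 50, against 326 of 8887. Adjusted p was under 0.05 for 0 genes in every limma fit.

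Directions of values near 0 turned. Itga4 was at -0.0035 without both libraries and ran from -0.012 to 0.14 leaving out 1 library. Itgb1 was at -0.020 with quantile normalization, -0.027 with upper quartile and -0.0081 with median ratio rescaling, -0.074 without both libraries, and from -0.092 to 0.12 leaving out 1. Esam ran from -0.074 to 0.36 leaving out 1. The cause was not tested.

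The labels do not say that same-numbered mice were paired. Deviations of same-numbered libraries correlated by 0.086 to 0.36, over 0.1 in 4 of 6 numbers. Their mean was 0.20, against -0.039 between libraries of different numbers, and the main fit takes no account of this. With the replicate block, 476 genes and 3 receptors were under 0.05, the third being Robo4. Of the other genes named for an unadjusted p under 0.05, Sharpin alone was no longer under it with the block. Selplg and Robo4 are not tested above a mean signal of 50, and Esam has no value under the scalings, limma without trend or the block. Depth limits Esam, Robo4 and Selplg most.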

Other observations

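Genes that varied most like each receptor were sought among those with a mean signal of at least 50, by the Pearson correlation of log2 values centred on the genotype means over the 12 libraries, as a description in which genes share library and depth. The nearest gene was Zfp35 for Cxcr4 (0.88), Chpt1 for Itga4 (0.88), Arfgef1 for Itga6 (0.88), Nudt4 for Itgb1 (0.89), Abr for Selplg (0.90), Agfg1 for Cd44 (0.85), Abhd2 for Robo4 (0.85) and Zfp871 for Itgal (0.81). For Robo4 this rested on the WT libraries, with 0.96 within WT and 0.18 within KO.

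Among markers of other cells, Pdgfrb, a stromal receptor, had a signal of 90.1 ± 14.2 (SD, n = 6) in WT and 69.3 ± 9.40 (SD, n = 6) in KO (log2 fold change -0.37, unadjusted limma p = 0.025, adjusted p = 0.9996, exact permutation p = 0.024). The stromal list of 10 genes, Pdgfrb included, summed to 101 to 128 in WT and to 75.1 to 115 in KO. Most of this sum was Pdgfrb itself, since 7 of the 10 genes had a mean signal under 1. The sum is therefore no separate measure of stromal RNA. B cell markers summed to 38.2 to 202 in WT and 55.3 to 299 in KO, mature myeloid markers to 71.6 to 126 and 71.1 to 142, and erythroid markers to 19.8 to 86.8 and 23.0 to 103. These sums also rest on few genes, since 2 B cell, 2 mature myeloid and 1 erythroid marker passed the filter.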
